A study of Rattus norvegicus with 4 samples.

Results

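Cultured rat granulosa cells that received both follicle-stimulating hormone (FSH) and FOXOA3, a FOXO1 transcription factor made permanently active, were compared with cells that received neither, across all genes of an expression array. The comparison set the FOXOA3 FSH array against the GFP vehicle array, which are 2 of the 4 arrays of the study, with 1 array a side. Granulosa cells surround the oocyte in the ovarian follicle and make its estradiol. They came here as primary cells from female Sprague-Dawley rats that were immature, aged 23 to 25 days and treated with estradiol. The dishes had a coat of 1% serum, and the medium held no serum. All cells were infected with an adenovirus for 4 h and then kept for 24 h. The GFP vehicle cells carried a green fluorescent protein vector and were given vehicle. The FOXOA3 FSH cells carried active FOXO1 and were given FSH at 100 ng/ml. The other arrays, GFP FSH and FOXOA3-mDBD FSH, held cells given the same hormone with the GFP vector or with a DNA-binding mutant of the active form. Vector and hormone differ together between FOXOA3 FSH and GFP vehicle, so that the effect of each cannot be told apart from this pair alone. Every probe set with exactly 1 gene symbol was used, 20826 of 31099, and each of the 14217 genes was read by its brightest probe set. No source used here gives the amount of virus, the promoters of the vectors or the number of cultures behind each RNA.

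FSH acts on granulosa cells through a receptor that raises cAMP, and it switches on steroid synthesis and the supply of cholesterol for it. It also activates the kinase AKT, which phosphorylates FOXO1 and drives it out of the nucleus. In FOXOA3 the AKT sites are replaced, so that this form remains nuclear and active while the hormone is present. The study asked how FSH and FOXO1 act on the genes of sterol, steroid and lipid synthesis. The present pair shows which of the differences seen on GFP FSH are still there when FOXO1 is held active, and which differences appear in addition.

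The values are MAS5 signals, the array software's brightness per probe set on a linear scale. A gene counted as measured if the brighter of its 2 signals was above a floor of 100.5, the median signal over all arrays, and dimmer signals were raised to that floor. Folds against a floored signal are lower bounds and are written "at least". A gene is called higher or lower once it differs by 2-fold or more. With 1 array a side there is no replicate, no test and no error for any single difference. FOXOA3 FSH and GFP vehicle were alike in their bacterial control RNAs, whose geometric mean signal was 22.6 and 21.4, against 395 with GFP FSH and 539 with FOXOA3-mDBD FSH. Any comparison of the pair with GFP FSH or FOXOA3-mDBD FSH therefore also crosses this difference in control RNAs, and its part in the results was not tested. Within the pair, the ratio of 3' to 5' signal, which rises as RNA is shortened, was 5.15 for beta-actin on GFP vehicle and 9.79 on FOXOA3 FSH, and for GAPDH 2.32 and 2.84.

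Defining granulosa markers were present on both arrays of the pair. Foxl2 had signals of 5546 on GFP vehicle and 4297 on FOXOA3 FSH, inhibin alpha (Inha) 9571 and 11433, the steroidogenic factor Nr5a1 1214 and 1506, Amhr2 919 and 680.2, and Hsd17b1 725 and 1041. The FSH receptor was not analysed here. Of the whole granulosa list, 15 of 19 genes were above the floor on GFP vehicle and 18 on FOXOA3 FSH. The theca cell markers Cyp17a1 and Insl3, the leukocyte markers Ptprc and Cd68 and the endothelial marker Pecam1 were under the floor on both. The leukocyte marker Csf1r and the endothelial marker Kdr are not described here. Of the leukocyte list, 4 of 17 genes were above the floor on GFP vehicle and 8 on FOXOA3 FSH, with summed signals of 3296 and 4858. For the endothelial list the counts were 3 of 13 and 5, with sums of 1064 and 1248. Of the theca, stroma and smooth muscle list, 10 of 19 and 12 were above the floor, with sums of 27534 and 37078. Foxo1 itself had a signal of 8149 on GFP vehicle and 3834 on FOXOA3 FSH. No source used here says whether its probe set reads the vector's transcript, so that this is no check of the label. In bulk RNA, fewer cells of a type and less RNA per cell cannot be told apart.

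FOXOA3 FSH and GFP vehicle differed less than either did from GFP FSH. Of 9904 measured genes, 924 (9.33%) were called, 527 higher (5.32%) and 397 lower (4.01%) on FOXOA3 FSH. GFP FSH over the same GFP vehicle array gave 1718 of 9578 genes (17.9%), and FOXOA3 FSH over GFP FSH gave 1800 of 9941 (18.1%). FOXOA3 FSH over GFP FSH held 1105 higher (11.1%) and 695 lower (6.99%) genes, and FOXOA3 FSH over FOXOA3-mDBD FSH 1913 higher (19.0%) and 932 lower (9.24%). The FOXOA3-mDBD FSH array stood farthest from vehicle, with 35.4% of 9861 genes called. These comparisons share arrays and are set side by side only. The higher side of the pair had the longer tail, with 47 genes at least 8-fold higher and 3 at least 8-fold lower. The median signal was 98.35 on GFP vehicle and 116.25 on FOXOA3 FSH, with 49.6% and 52.8% of probe sets above the floor. The part of this difference in the tail was not tested. With the floor at the 75th percentile of signals, 204 genes were higher and 205 lower. Among the 397 lower genes the fold was a bound for 32, and among the 527 higher genes for 149.

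The 15 highest genes of the pair included steroidogenic genes and Ddit4, which were also bright on GFP FSH. Others were dim on both GFP arrays, and some, such as Dcn, Nap1l5 and Cybb, lay in between. The tetraspanin Tspan8 had signals of 136 on GFP vehicle and 7837 on FOXOA3 FSH (57.6-fold), and Cyp11a1, the enzyme that cleaves the cholesterol side chain, 174 and 9809 (56.5-fold). Igsf1 was 28.7-fold higher, the cannabinoid receptor Cnr1 26.2-fold, the cholesterol transporter Star 23.7-fold, Nap1l5 at least 23.4-fold, relaxin (Rln1) 21.4-fold and the matrix proteoglycan decorin (Dcn) 20.0-fold. The WNT-binding protein Sfrp2 was at least 21.0-fold higher, the ubiquitin-like modifier Isg15 at least 20.9-fold, the actin-severing protein scinderin (Scin) at least 20.5-fold, the oxidase subunit Cybb at least 19.0-fold, the collagenase Mmp13 at least 18.0-fold, Dmrtc1c1 at least 17.1-fold and the mTORC1 inhibitor Ddit4 18.6-fold. At the low end stood the adhesion molecule Mcam, with 1937 on GFP vehicle and 188 on FOXOA3 FSH (10.3-fold lower), and the sphingosine 1-phosphate receptor S1pr1, with 5714 and 623 (9.17-fold lower). Fbln5, an elastic fibre protein, was 8.98-fold lower, Rcan2, an inhibitor of calcineurin, 7.96-fold, cardiac troponin C (Tnnc1) at least 7.81-fold, the prolyl hydroxylase P4ha3 7.30-fold and the prostaglandin E synthase Ptges 7.09-fold. Septin4, Tcim, Bmp4, Acta2, Mal2, Irx3, the fatty acid-binding protein Fabp3 and the desmosomal protein Pkp2 completed the 15 lowest, between 7.01-fold and 5.24-fold lower.

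**Figure D1:**
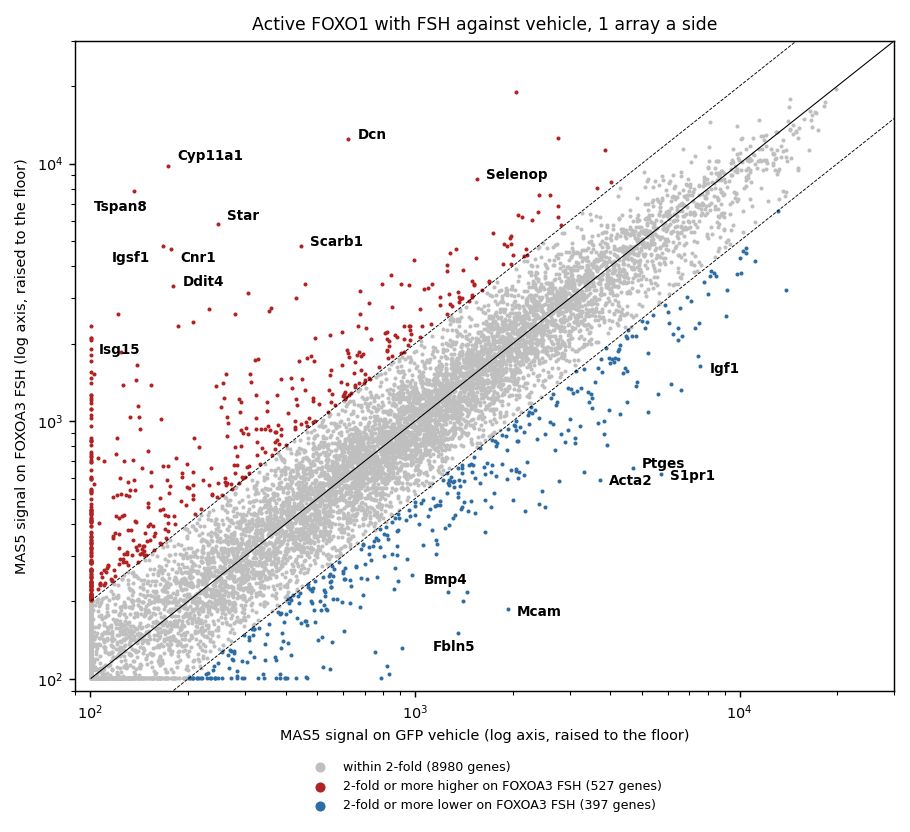
Each point is 1 of 9904 measured genes, with its MAS5 signal on GFP vehicle (x axis, log) and on FOXOA3 FSH (y axis, log), both raised to the floor of 100.5. The solid line marks equal signals and the dashed lines 2-fold. The 527 higher genes (red) reach farther from the diagonal than the 397 lower genes (blue).

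Of 12 measured steroid synthesis genes, 6 were higher on FOXOA3 FSH than on vehicle, and 5 of these 6 were higher on GFP FSH as well, all but Cyp1b1. Cyp11a1 had signals of 174, 22700.1, 9809 and 8979 on the GFP arrays without and with hormone, then with FOXOA3 and with FOXOA3-mDBD, the order used for every set of 4 signals from here on. It was dim without hormone and bright on all 3 hormone arrays, and FOXOA3 FSH lay below GFP FSH. Star, which carries cholesterol into mitochondria, had 247, 12092, 5854 and 2976, the same order. Ferredoxin (Fdx1), the electron donor of Cyp11a1, had 2752, 25366, 12534 and 16481 and was 4.55-fold higher in the pair. Of this list 0 were lower in the pair, with a median log2 ratio of 0.96, where the median of all measured genes was 0.01 and 5.32% were higher. On GFP FSH over GFP vehicle, where 6.84% of all genes were higher, 10 of 12 were higher, with a median of 2.25. The other higher members of the pair were Cyp19a1, Hsd11b1, which reactivates glucocorticoids (at least 5.31-fold), and the estrogen hydroxylase Cyp1b1 (2.10-fold). Cyp1b1 had 776, 496, 1630.3 and 2227, below vehicle by less than 2-fold on GFP FSH. The SF-1 element CAAGGTCA, the site of the steroidogenic factor Nr5a1, was searched on both strands in the 250 bases before the annotated start and was found in 0 of 10 promoters of this list and in 1.30% of 27457 RefSeq promoters.

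Of the enzymes that finish estradiol, aromatase was higher in the pair and Hsd17b1 was within 2-fold. Aromatase (Cyp19a1), which makes estrogen from androgen, had 35.0, 13042, 726 and 275. It was at least 7.22-fold higher in the pair, and its signal on FOXOA3 FSH was far below that on GFP FSH. The 2 measured probe sets of Cyp19a1 gave log2 ratios of 1.12 and 2.85. Hsd17b1, which reduces estrone to estradiol, had 725, 4564, 1041 and 961, so that only GFP FSH stood high. Hsd3b1, which makes progesterone, had 8119.9, 25199.9, 14547 and 20311 and was bright on every array, although the array may not separate it from near-identical copies.

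Receptors and signalling genes of the differentiated granulosa cell were also partly there. The prolactin receptor Prlr had 97.4, 5042, 1210.5 and 925 and was at least 12.0-fold higher in the pair, although its 3 measured probe sets ranged from 0.42 to 3.59 in log2 ratio. The luteinizing hormone receptor Lhcgr had 20.0, 4402, 497 and 186 and was at least 4.95-fold higher. Both were under the floor on GFP vehicle and above it on every hormone array. Among the 21 measured genes for hormone receptors and cAMP signalling, 5 were higher (5.32% of all genes) and 1 lower (4.01%), the median being 0.30, and on GFP FSH 8 of 20 were higher (6.84% of all genes) and 1 lower (11.1%). The cAMP phosphodiesterases Pde4b and Pde4d were 5.22-fold and at least 2.99-fold higher in the pair and the kinase Sgk1, a classical FSH response gene, 3.10-fold. The kinase A scaffold Akap12 was the lower member, with 1587, 122, 786 and 92.1.

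Scarb1, the high-density lipoprotein receptor that imports cholesteryl esters, had 446, 12829, 4790.2 and 2463 and was 10.7-fold higher in the pair. It was the higher member among 17 measured genes of cholesterol uptake, storage and efflux, a share near the 5.32% of all genes, where the very low-density lipoprotein receptor Vldlr (3.09-fold) and the efflux pump Abca1 (2.10-fold) were lower. The 2 lower members stand against 4.01% of all genes, and the 2 measured probe sets of Abca1 gave log2 ratios of -1.07 and 0.17. On GFP FSH, 5 of the 17 were higher (6.84% of all genes) and 4 lower (11.1%). The lipoprotein receptor Lrp8 had 1209.6, 9715, 1999 and 1553. The sterol carrier Stard4 had 496, 1755, 451 and 392. Both were high on GFP FSH alone. Of 11 measured luteal markers 7 were higher (5.32% of all genes), with a median of 2.31, and 9 of 11 on GFP FSH (6.84% of all genes), with a median of 2.02. On FOXOA3 FSH over GFP FSH 6 of 11 were lower (6.99% of all genes) and 0 higher (11.1%), with a median of -1.05. The median of the pair moved by more than 1.5-fold with the floor and with the mean over probe sets. Prlr, Lhcgr, Star, Scarb1, Cyp11a1 and Hsd11b1 are 6 of the 7 that were higher in the pair and are described above. The count of 7 is therefore not a separate result, and the other is the WNT antagonist Sfrp4 (at least 4.37-fold).

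Of the EGF-like ligands and ovulatory genes, 6 of 12 were higher (5.32% of all genes) and 1 lower in the pair, with a median of 1.02, or 0.30 with the floor at the 75th percentile of signals. On GFP FSH 8 of 11 were higher (6.84% of all genes) and 1 lower. The EGF receptor ligand Areg had 126, 3079, 1383 and 4537. Its relative Ereg had 88.4, 755, 309 and 90.5. Areg was high on all hormone arrays and highest with the DNA-binding mutant, while Ereg was above the floor with FOXOA3 and not with the mutant. The prostaglandin synthase Ptgs2 was at least 4.04-fold higher, the hyaluronan-binding protein Tnfaip6 4.27-fold, the plasminogen activator Plau 3.24-fold and the EGF receptor (Egfr) 2.35-fold. Ptges, which makes prostaglandin E, ran the other way, with 4688, 1250.2, 661 and 218. The cAMP response element TGACGTCA was found, in the same windows and on both strands, in 1.70% of all promoters, in 3.19% of those of measured genes and in 2.32% of those of genes called higher. The stretch of Areg is shown because it was the EGF receptor ligand with the largest fold in the pair, with the element in capitals, at rat GRCr8 chr14:17265695-17265762, minus strand.
Areg: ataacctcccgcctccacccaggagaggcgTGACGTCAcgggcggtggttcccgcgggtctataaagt
The match lies 84 to 91 bases before the start. Among the 9 of the 12 top remaining genes with a promoter in the table, Areg was the only one with this element.

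The 12 genes that stood highest on both GFP FSH and FOXOA3 FSH over vehicle also included Mrap, an accessory protein of melanocortin receptors, with 50.3, 3916, 1476 and 1050.4. Tmem86a had 233, 5497, 2722 and 824. Both were dim on vehicle and brightest on GFP FSH. G0s2, an inhibitor of triglyceride lipase, had 72.7, 3955, 1059 and 703. Fam110c had 37.5, 4634, 1026 and 741. Mmd2 was at least 7.56-fold higher in the pair and the potassium channel subunit Kcne4 7.30-fold. Kcne4 was close on the GFP FSH and FOXOA3 FSH arrays, at 1217 and 1035. For the other 11 the FOXOA3 FSH signal was below that of GFP FSH, at log2 ratios between the 2 arrays from -2.18 for Fam110c to -1.01 for Tmem86a.

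Part of the genes that were lower on GFP FSH were also lower on FOXOA3 FSH. The rule that picked the largest common decreases named S1pr1, Mcam, Tnnc1, P4ha3, Septin4, Tcim, Bmp4, Acta2, Irx3, Fbln5, Rcan2 and Mal2. Irx3, a homeobox factor, had 1260.0, 217, 218 and 212, almost the same on each hormone array. Tcim had 914, 135, 132 and 177. The growth factor Bmp4 had 1446, 111, 218 and 80.5, again low on all 3 hormone arrays. S1pr1 had 5714, 128, 623 and 717, so that FOXOA3 FSH lay between GFP FSH and vehicle. Mcam had 1937, 246, 188 and 38.8. Fbln5 had 1358, 240.4, 151 and 71.7. On FOXOA3 FSH both were within 2-fold of GFP FSH. The 2 measured probe sets of Mcam gave log2 ratios of -3.37 and -0.89 in the pair.

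The contractile and actin cytoskeleton genes were the list with the most lower members in the pair. Of 23 measured members, 10 were lower and 0 higher, with a median of -0.86, where 4.01% of all measured genes were lower. On GFP FSH over GFP vehicle, where 11.1% of all genes were lower, it was 17 of 22, with a median of -1.67. Smooth muscle actin (Acta2) had 3711, 192, 594 and 215. Transgelin (Tagln) had 9167, 902, 3238 and 728. The myosin light chain Myl9 had 3816, 513, 1003 and 471. In each of these, GFP vehicle was the brightest and FOXOA3 FSH the next, above both other hormone arrays. Ankrd1, a target of mechanical signalling, was 5.01-fold lower in the pair, tropomyosins Tpm2 and Tpm1 at least 4.27-fold and 2.23-fold, the myosin kinase Mylk 3.48-fold and vinculin (Vcl) 2.39-fold. Several of these genes also mark stroma and smooth muscle, a list of which 4 of 13 measured members were lower (4.01% of all genes) and 5 higher (5.32%) in the pair. The higher members of that list were Star, Lhcgr, Dcn, Col3a1 and Aspn, of which Star and Lhcgr are granulosa genes under FSH, and the lower were Acta2, Tagln, Lum and Ogn. The part of stromal cells in these values was not tested.

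Matrix genes went both ways. Of 33 measured collagens and matrix genes, 9 were lower (4.01% of all genes) and 3 higher (5.32%). Their median was -0.27, and 0.15 with the floor at the 25th percentile of signals. On GFP FSH 14 of 29 were lower (11.1% of all genes) and 1 higher. The fibrillar collagen Col11a1 had 13943, 3299, 3247 and 544. The proteoglycan biglycan (Bgn) had 606, 140.4, 154 and 18.3. The basement membrane linker Nid1 had 870.5, 48.5, 269 and 281. These were lower on both GFP FSH and FOXOA3 FSH than on vehicle, although the 2 measured probe sets of Nid1 gave log2 ratios of -1.69 and -0.04. Decorin, which binds collagen and growth factors, had 624, 485, 12504 and 206 and stood high on FOXOA3 FSH alone. Col3a1 had 2607, 170.0, 7556 and 82.0. Asporin (Aspn) had 1099, 22.4, 3305 and 11514. Both were at their lowest or near it on GFP FSH, and FOXOA3 FSH was above vehicle. Osteoglycin (Ogn), a proteoglycan of the same family as decorin, had 9115, 12973, 2562 and 3329. Lower on FOXOA3 FSH than on both GFP arrays, and osteomodulin (Omd) showed the same with 6239.6, 6238, 2188 and 3874.

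**Figure D2:**
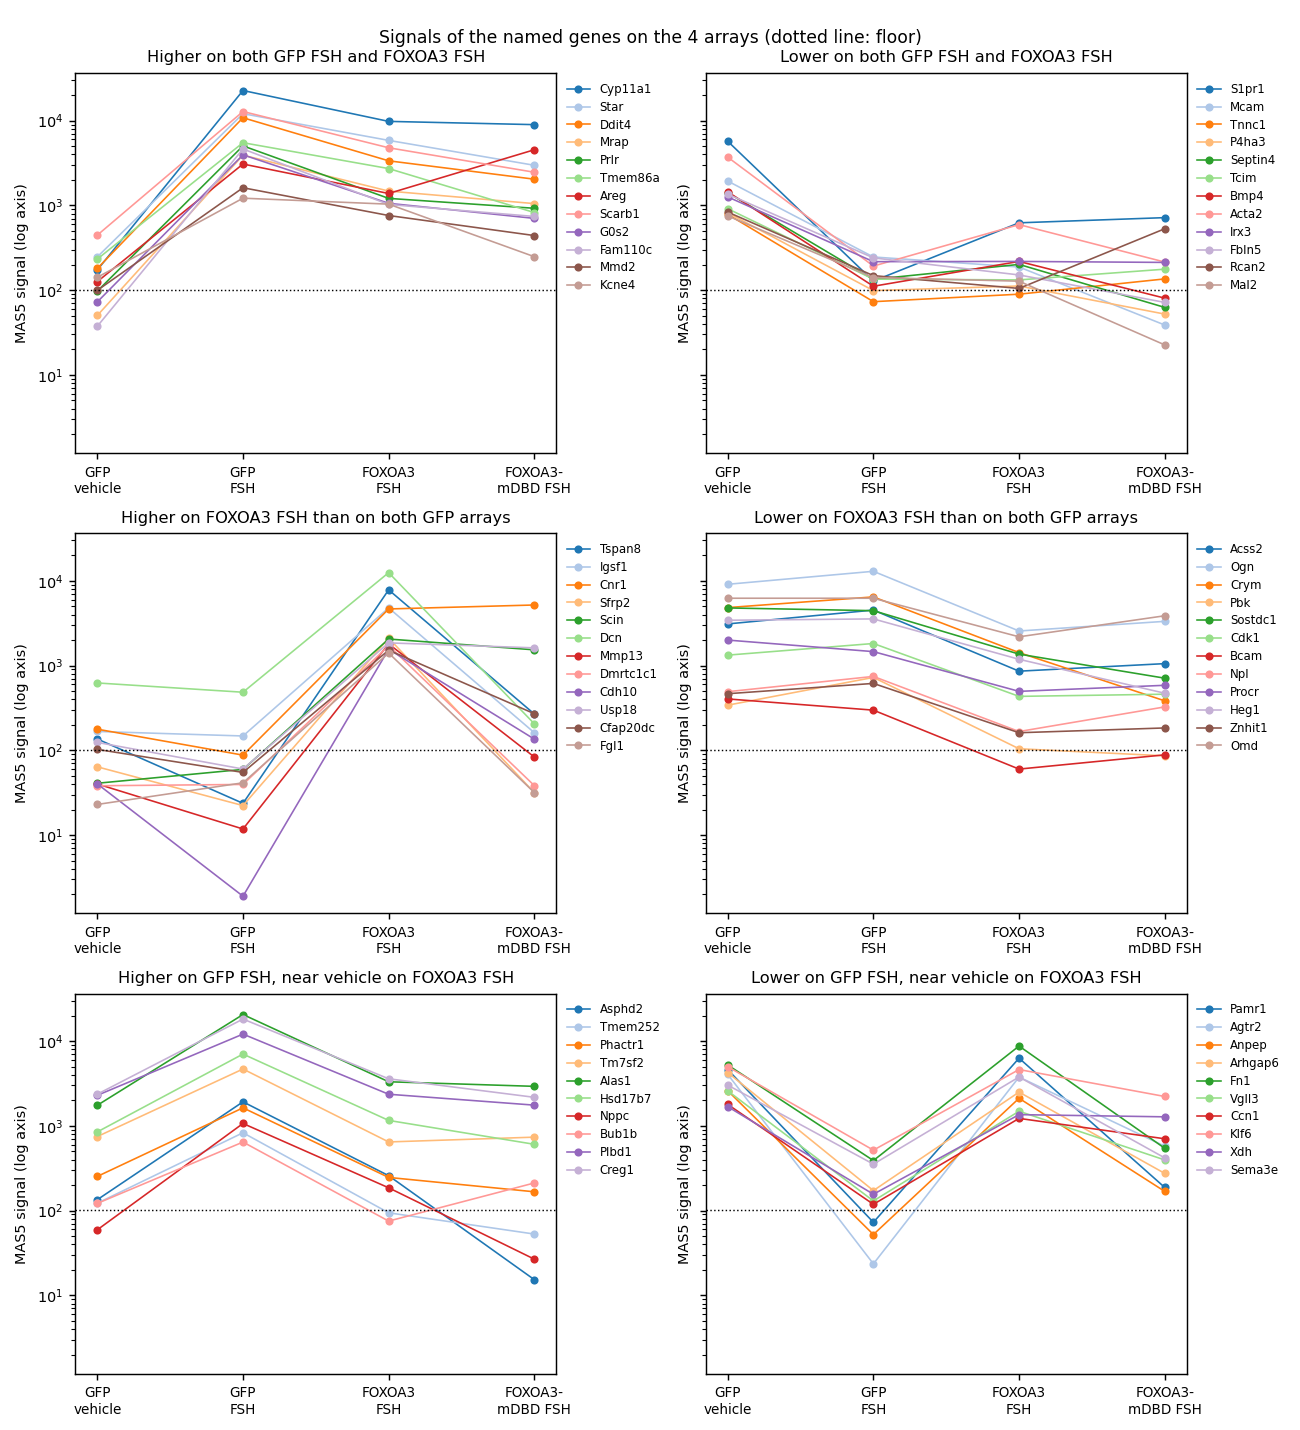
MAS5 signals (log axis) on the 4 arrays, 1 line per gene, for the genes named by each rule, with the floor of 100.5 as a dotted line. The upper panels show Cyp11a1, Star and others that differ from vehicle on GFP FSH and FOXOA3 FSH, the middle panels genes such as Tspan8 that set FOXOA3 FSH apart from both GFP arrays, and the lower panels genes such as Tm7sf2 and Pamr1 whose FOXOA3 FSH signal is within 2-fold of vehicle.

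Cholesterol biosynthesis, higher on GFP FSH, was at the vehicle level on FOXOA3 FSH. Of 17 measured enzymes, 1 was higher and 0 lower in the pair, a share close to the 5.32% of all genes, and the median was -0.14. On GFP FSH over GFP vehicle 16 of 17 were higher (6.84% of all genes), with a median of 1.81. On FOXOA3 FSH over GFP FSH 17 of 17 were lower (6.99% of all genes), with a median of -1.85. The sterol reductase Tm7sf2 had 747, 4680.5, 645 and 735. Squalene epoxidase (Sqle) had 1489, 6353, 1464 and 1208. The lanosterol demethylase Cyp51 had 3782, 13858, 3709 and 4417. In all 3, GFP FSH stood alone and the FOXOA3 FSH, FOXOA3-mDBD FSH and vehicle arrays were close. The isomerase Idi1 was the exception, with 2133, 12556, 6185 and 7795, and was 2.90-fold higher in the pair. Dhcr7, which makes the last double-bond reduction to cholesterol, was just under the threshold with 2164, 12642, 4193 and 3735. At the other end Nsdhl had 1562, 4515, 866 and 903. Farnesyl diphosphate synthase (Fdps) had 9545, 20501, 5793 and 4758, below vehicle but within 2-fold.

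The regulators of these enzymes were near vehicle too. SREBP factors are membrane-bound transcription factors that switch on sterol and fatty acid genes. Srebf1 had 856, 2068, 634 and 285. Srebf2 had 1781, 1738, 1597 and 563. Insig1, which holds SREBP in the endoplasmic reticulum, had 4492, 9857, 3167 and 2553. Of the 11 measured regulators 0 were called in either direction in the pair, where 9.33% of all genes were, and their median was -0.16. On GFP FSH 2 of 11 were higher (6.84% of all genes) and 1 lower (11.1%). No match to the sterol element TCACNCCAC was found in the windows of 15 cholesterol biosynthesis genes, and 0.976% of all promoters held it.

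Fatty acid and glycerolipid genes were split. Of 26 measured, 4 were higher (5.32% of all genes) and 1 lower (4.01%) in the pair, with a median of 0.06. On GFP FSH 13 were higher (6.84% of all genes) and 0 lower (11.1%), and the median was 0.97. The higher members were G0s2, the acyl-CoA synthetase Acsbg1 (at least 4.61-fold), the desaturase Scd and the phosphatidate phosphatase Lpin1. Scd had 692, 4676, 1829 and 4023. Lpin1 had 387, 438, 931 and 335 and was higher on FOXOA3 FSH alone. Acss2, which activates acetate for lipid synthesis, had 3105, 4522, 859.7 and 1055 and was 3.61-fold lower in the pair. Elovl6, the elongase of saturated fatty acids, had 699, 2346, 374 and 445. Fatty acid synthase (Fasn) had 2218, 3554, 1256 and 641. Both were below vehicle but within 2-fold. Acsl3, Me1 and Fads2 were within 1.5-fold of vehicle on FOXOA3 FSH, at log2 ratios of 0.01, 0.18 and 0.01.

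**Figure D3:**
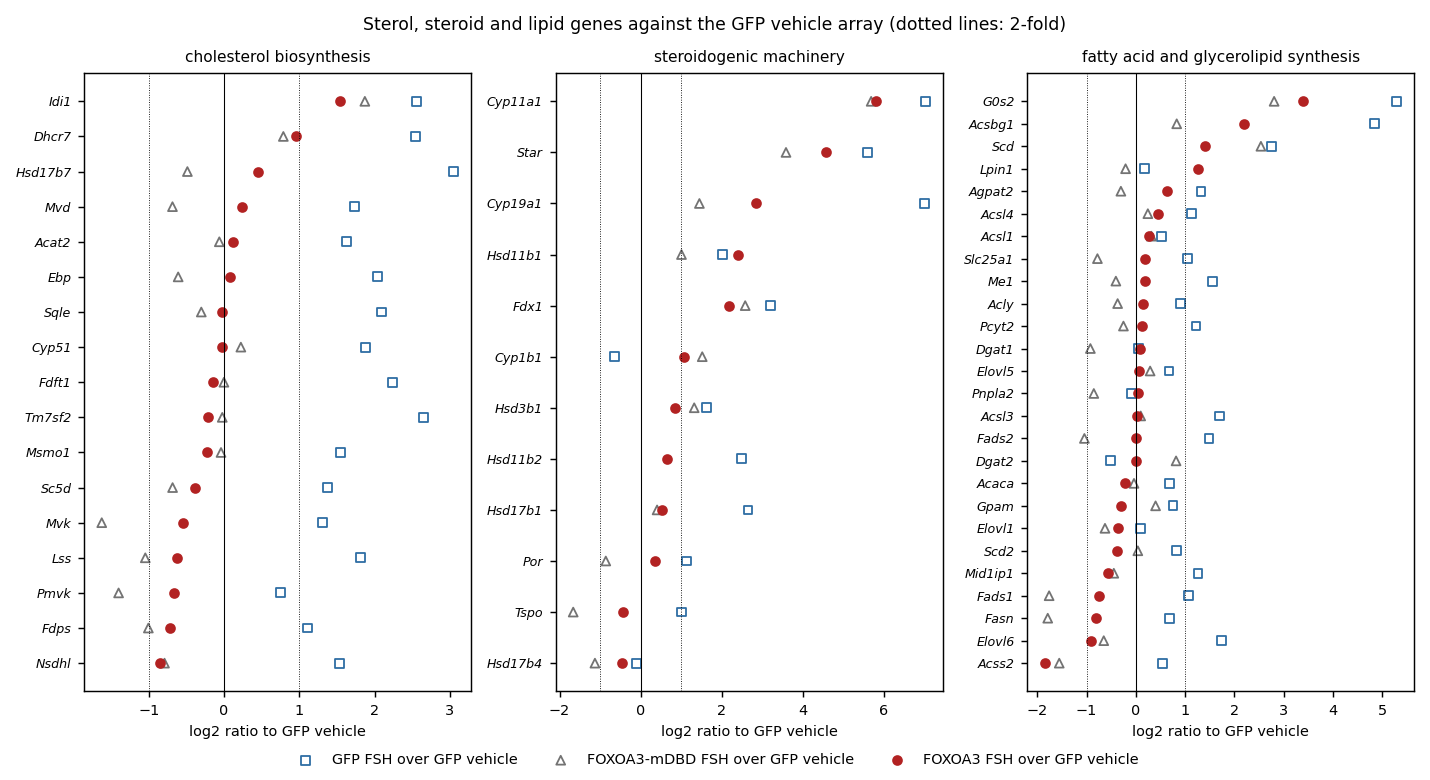
Log2 ratios to the GFP vehicle array (x axis) for each measured gene of 3 lists, with FOXOA3 FSH as filled circles, GFP FSH as open squares and FOXOA3-mDBD FSH as open triangles. In cholesterol biosynthesis the circles lie between -0.85 and 1.54 and the squares at 1 or more for 16 of 17 genes, while Cyp11a1 and Star lie above 4 in both.

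Other genes that were high on GFP FSH were within 2-fold of vehicle on FOXOA3 FSH. The rule for such genes named Asphd2, Tmem252, Phactr1, Tm7sf2, Alas1, Hsd17b7, Nppc, Bub1b, Plbd1 and Creg1. Alas1, the first enzyme of heme synthesis, had 1748, 20573, 3309.8 and 2923. Hsd17b7, a sterol ketoreductase, had 848, 7026, 1158 and 605. Nppc, the peptide that holds the oocyte in meiotic arrest, had 59.3, 1066, 186 and 26.7. In each of these GFP FSH was the brightest array, by more than 2-fold over each of the others. The actin regulator Phactr1 had 253, 1630.3, 246 and 166. The phospholipase-like Plbd1 had 2290.4, 12089.7, 2358 and 1754. The lysosomal glycoprotein Creg1 had 2363, 18200.4, 3589.5 and 2169.

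Glycolysis and the granulosa markers were near vehicle as groups. Of 18 measured glycolysis and lactate genes 0 were called in the pair (9.33% of all genes) and the median was -0.15, whereas 7 were higher (6.84% of all genes) and 2 lower (11.1%) on GFP FSH, with a median of 0.83. Phosphofructokinase (Pfkm) had 1667, 4856, 1509 and 2773. The lactate transporter Slc16a1 had 2141, 5136, 3044 and 2191. Of 18 measured granulosa markers 3 were higher (5.32% of all genes) and 1 lower (4.01%) in the pair, with a median of 0.31. On GFP FSH 9 were higher (6.84% of all genes) and 1 lower (11.1%), and the median was 0.97. The higher were Cyp19a1, the activin subunit Inhbb and Kit ligand (Kitlg), and the lower was Wt1, a transcription factor of early follicles. Inhbb had 993, 11519, 4235 and 3135. Kitlg had 174, 297, 404 and 1105. Wt1 had 1315, 465, 555 and 228. Inhbb thus followed GFP FSH at a lower level, while Kitlg was highest with the mutant. Inha, which forms inhibin with an activin subunit, had 9571, 29569, 11433 and 4267. Nr5a2, a nuclear receptor of steroidogenic cells, had 2210.2, 10820.2, 4195 and 3736.

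Genes that were low on GFP FSH but not on FOXOA3 FSH included receptors, matrix and signalling genes. The rule named Pamr1, the angiotensin receptor Agtr2, the aminopeptidase Anpep, Arhgap6, fibronectin (Fn1), Vgll3, Ccn1, Klf6, xanthine dehydrogenase (Xdh) and the axon guidance factor Sema3e. Pamr1 had 4606, 72.7, 6284 and 188. Agtr2 had 4043, 23.5, 3758 and 575. Anpep had 2594, 52.1, 2114 and 168. Each was bright on the 2 arrays of the pair and dim on the other 2. Fibronectin showed the same with 5224, 389, 8740.5 and 544. These 2 bright arrays are also the 2 arrays without the bacterial control RNAs, so that the state of the control RNAs and the treatment cannot be told apart for this pattern. Xdh had 1683, 156, 1355 and 1277. Klf6, a zinc finger factor, had 4981, 516, 4612 and 2219. Both were bright on the FOXOA3-mDBD FSH array as well. Among 24 measured immediate-early transcription factors, 2 were higher in the pair, Klf2 and Egr2, near the 5.32% of all genes, and 0 lower. On GFP FSH 7 of 23 were lower (11.1% of all genes) and 1 higher.

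Genes that set FOXOA3 FSH apart from both GFP arrays were ranked by their fold over the brighter GFP array. With 1 exception, the 12 highest were under 200 in signal on each GFP array. Such a rule favours genes that are dim on those arrays, so that this dimness is not a separate result. Tspan8, a membrane tetraspanin, had 136, 23.7, 7837 and 269. Igsf1, a membrane glycoprotein, had 167, 148, 4800.5 and 162. Sfrp2 had 63.9, 22.3, 2111 and 31.7. All 3 were dim on the other arrays. Mmp13 had 40.1, 11.8, 1805 and 83.5. Dmrtc1c1 had 38.2, 39.6, 1719.6 and 38.4. The hepatokine Fgl1 had 23.0, 41.4, 1408 and 31.8. These 6 stood high on FOXOA3 FSH alone and were below 300 on the array of the DNA-binding mutant. Decorin, the exception, was already present on both GFP arrays. Cnr1 had 178, 87.8, 4662 and 5193. Scin had 40.9, 59.6, 2059 and 1536. Usp18, a protease of the interferon response, had 124, 60.2, 1854 and 1620.4. These 3 differed from the 6 in being high with the mutant too. The cadherin Cdh10 had 40.2, 1.9, 1559.5 and 136. Cfap20dc had 103, 54.9, 1521 and 271. In both, the array of the mutant was far below FOXOA3 FSH. Among the other genes of the 15 highest, Nap1l5 had 88.5, 519, 2349 and 414. Rln1 had 121, 237, 2597 and 344. Cybb had 85.3, 478, 1913 and 636. In these 3, GFP FSH lay between vehicle and FOXOA3 FSH. Measured probe sets of 1 gene differed in size, from 1.49 to 4.71 in log2 ratio for Cnr1, 2.32 to 4.39 for Sfrp2 and 1.51 to 4.25 for Cybb.

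The 12 genes that stood farthest below both GFP arrays on FOXOA3 FSH were Acss2, Ogn, Crym, Pbk, Sostdc1, Cdk1, Bcam, Npl, Procr, Heg1, Znhit1 and Omd. Crym, a thyroid hormone-binding protein, had 4839, 6469, 1425 and 384. The BMP and WNT antagonist Sostdc1 had 4793, 4449.9, 1367 and 711. The laminin receptor Bcam had 404, 298, 60.1 and 88.5. Each was as bright on GFP FSH as on vehicle, within 1.5-fold, and lower on both FOXO1 arrays. Npl, an enzyme of sialic acid breakdown, had 492, 746, 167 and 326. The protein C receptor Procr had 2001, 1463, 497 and 586. Heg1, a receptor of endothelial junctions, had 3430.3, 3558, 1188 and 472 and was 2.89-fold lower in the pair. Npl, Procr and Heg1 were below both GFP arrays on the array of the mutant too. Znhit1, a subunit of a chromatin remodelling complex, was 2.89-fold lower.

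The core of the element bound by FOXO factors, GTAAACA, was searched on both strands in the same windows of 250 bases, each promoter counted once. It was found in 15 of 431 genes called higher (3.48%), in 1 of 315 called lower (0.317%) and in 3.25% of all 27457 promoters, or 2.11% of the measured genes with a promoter in the table. Among the 8 genes of the 12 highest additions with a promoter in the table, Tspan8 and Mmp13 held a match. Their stretches are shown with the match in capitals because these genes were high with FOXOA3 and low with its DNA-binding mutant. They lie at rat GRCr8 chr7:53331074-53331140, plus strand, and chr8:12782685-12782751, plus strand.
Tspan8: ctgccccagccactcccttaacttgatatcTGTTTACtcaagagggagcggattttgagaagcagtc
Mmp13: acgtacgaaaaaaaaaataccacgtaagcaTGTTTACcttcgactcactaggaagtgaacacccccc
The matches lie 77 to 83 and 108 to 114 bases before the annotated start, in both cases as TGTTTAC, the reverse complement of the searched letters. A match is a run of letters and no measure of binding.

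Known FOXO target genes had a list median near vehicle, but members were called in both directions more often than all genes. Of 31 measured, 6 were higher and 3 lower in the pair, against 5.32% and 4.01% of all genes. Their median of -0.01 was slightly above 0, up to 0.16, under 5 of the 7 alternatives for medians. On GFP FSH 3 were higher and 10 lower, against 6.84% and 11.1% of all genes. Pdk4, the kinase that shuts off pyruvate dehydrogenase, had 546, 34.4, 1513 and 617. The transcription factor Klf2 had 308, 156, 668 and 144. Both were lowest or near lowest on GFP FSH and highest on FOXOA3 FSH, although the other measured probe sets of Klf2 had a log2 ratio of 0.02 in the pair against 1.12 for the one used. Bcl6, a transcriptional repressor, had 1522, 897, 3424 and 2261 and was likewise above all other arrays. Ddit4 had 180.3, 10827, 3360.2 and 2039. The selenium carrier Selenop had 1551, 13057, 8711 and 1909. Mitochondrial superoxide dismutase (Sod2) had 1053, 4071, 2347 and 920.3. These 3 higher members were instead highest on GFP FSH. Among the lower members, the PI3-kinase inhibitor Pik3ip1 had 3581, 338, 1426 and 322. The stress gene Gadd45b had 1266, 176, 575 and 404. Catalase (Cat) had 2287, 2579, 1079 and 806. Catalase alone of these was not low on GFP FSH. The insulin receptor adaptor Irs2 was at the vehicle level, with 1896, 287, 1599 and 3838. Sesn3 had 277, 57.4, 459 and 130.3. The cell cycle inhibitor Cdkn1a had 3904, 1436, 5657 and 1721, both above vehicle by less than 2-fold.

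Insulin and IGF signalling genes were slightly below vehicle, with 4 of 21 lower (4.01% of all genes) and 1 higher (5.32%) and a median of -0.21, against 7 of 19 lower (11.1% of all genes) and 0 higher on GFP FSH. Igf1, a granulosa growth factor, had 7579, 2437, 1636 and 7429 and was 4.63-fold lower in the pair. It was low on both GFP FSH and FOXOA3 FSH and at the vehicle level on FOXOA3-mDBD FSH. The PI3-kinase subunit Pik3r1 had 342, 146, 21.5 and 186. The binding protein Igfbp5 had 3663, 4110.3, 1610.5 and 287. Igfbp6 was the higher member, 2.30-fold.

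Interferon response genes were the list with the most higher members in the pair. These genes are switched on by interferon or by the sensing of viral nucleic acid, and all cells here, controls included, had been infected with an adenovirus. Of 35 measured, 19 were higher and 0 lower, and the median was 1.02, where 5.32% of all genes were higher and 6.84% on GFP FSH. On GFP FSH 7 of 28 were higher and 3 lower (11.1% of all genes), and on FOXOA3-mDBD FSH over vehicle, where 13.0% of all genes were higher, 20 of 35 were higher and 2 lower. The sets of 35 and 28 differ, because a gene enters once 1 of the 2 compared arrays is above the floor. For 9 of the 35 in the pair the fold was a bound, so that each of these entered the pair through 1 array only. Isg15, Rsad2 and Ifit3 are examples that entered only through FOXOA3 FSH. The count of 19 higher therefore includes members admitted by their own high signal. Isg15 had 79.3, 154, 2103 and 4805 and its protease Usp18, shown above, was 14.9-fold higher in the pair. Rsad2, an antiviral enzyme, had 62.7, 48.9, 1236 and 1646. The antiviral GTPase Mx2 had 186, 274, 2348 and 3533. The transcription factor Irf7 had 329, 152, 1742 and 5623. Each was low on both GFP arrays and high on both FOXO1 arrays. The chemokine Cxcl10 had 110.3, 71.2, 699.8 and 2372. The viral RNA sensor Ifih1 had 153, 78.4, 266 and 962. The immunoproteasome subunit Psmb8 had 446, 1052, 977 and 1132. Bst2, which tethers virus particles, had 2764, 6320.3, 6219 and 6051. These 2 were higher on GFP FSH as well. Of the leukocyte markers 1 of 8 measured was higher in the pair, lysozyme (Lyz2), at 376 on GFP vehicle and 1266 on FOXOA3 FSH, and Ptprc and Cd68 were under the floor on every array. The part of leukocytes in the interferon values was not tested.

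The interferon-stimulated response element was searched on either strand as GAAA and GAAA with any 2 bases between them. It was found in 19 of 30 interferon list promoters (63.3%) and in 31 of 431 genes called higher (7.19%). Among genes called lower the share was 2.54%, among measured genes 2.62% and among all promoters 3.29%. Of the 16 measured members that held it, 10 were higher, with a median of 1.10, and of the 11 that did not, 5 were higher, with a median of 0.91. Those 10 are among the 31 genes called higher with the element, so that these counts overlap. The stretches of Irf7, Rsad2 and Ifit3 are shown as examples from higher members of the list, with the match in capitals, at rat GRCr8 chr1:205800053-205800122 and chr6:48788228-48788297 on the minus strand and chr1:241527252-241527321 on the plus strand.
Irf7: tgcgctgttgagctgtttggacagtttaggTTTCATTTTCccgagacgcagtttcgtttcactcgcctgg
Rsad2: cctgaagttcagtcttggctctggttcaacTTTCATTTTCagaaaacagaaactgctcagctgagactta
Ifit3: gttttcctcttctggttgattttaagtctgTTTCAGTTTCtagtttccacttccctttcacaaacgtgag
Ifit3, an antiviral RNA-binding protein family member, had signals of 31.5, 32.4, 333 and 1217.

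Mitotic genes had a median below vehicle on FOXOA3 FSH and above it on GFP FSH. Of 35 measured S phase and mitosis genes, 7 were lower (4.01% of all genes) and 0 higher in the pair, with a median of -0.56. On GFP FSH 10 were higher (6.84% of all genes) and 0 lower, and the median was 0.82. On FOXOA3 FSH over GFP FSH 25 of 35 were lower (6.99% of all genes), with a median of -1.25. The mitotic kinase Cdk1 had 1329.7, 1824, 434 and 459.9. Cyclin A2 (Ccna2) had 318, 807, 121 and 143. The kinase Pbk had 341, 726, 104 and 86.2. In each, GFP FSH was the brightest, vehicle next, and both FOXO1 arrays were low. Aurora kinase B (Aurkb) was 2.75-fold lower in the pair, Pclaf, a partner of the replication clamp, 2.46-fold, and the kinesins Kif23 and Cenpe 3.49-fold and at least 2.95-fold. The replication genes Mcm2, Mcm6 and Pcna were within 2-fold, at log2 ratios of -0.20, -0.05 and 0.01. Of the 19 measured G1 regulators only the kinase inhibitor Cdkn2c was higher, with 323, 519.9, 1264 and 853. Only the retinoblastoma gene Rb1 was lower, with 1273, 719, 396 and 671. These counts are near the 5.32% higher and 4.01% lower of all genes. The 2 measured probe sets of Cdkn2c gave 1.97 and -0.07. Cyclin D2 (Ccnd2), the FSH-responsive cyclin of granulosa cells, was at the vehicle level with 2878, 6379, 2831 and 1132.

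**Figure D4:**
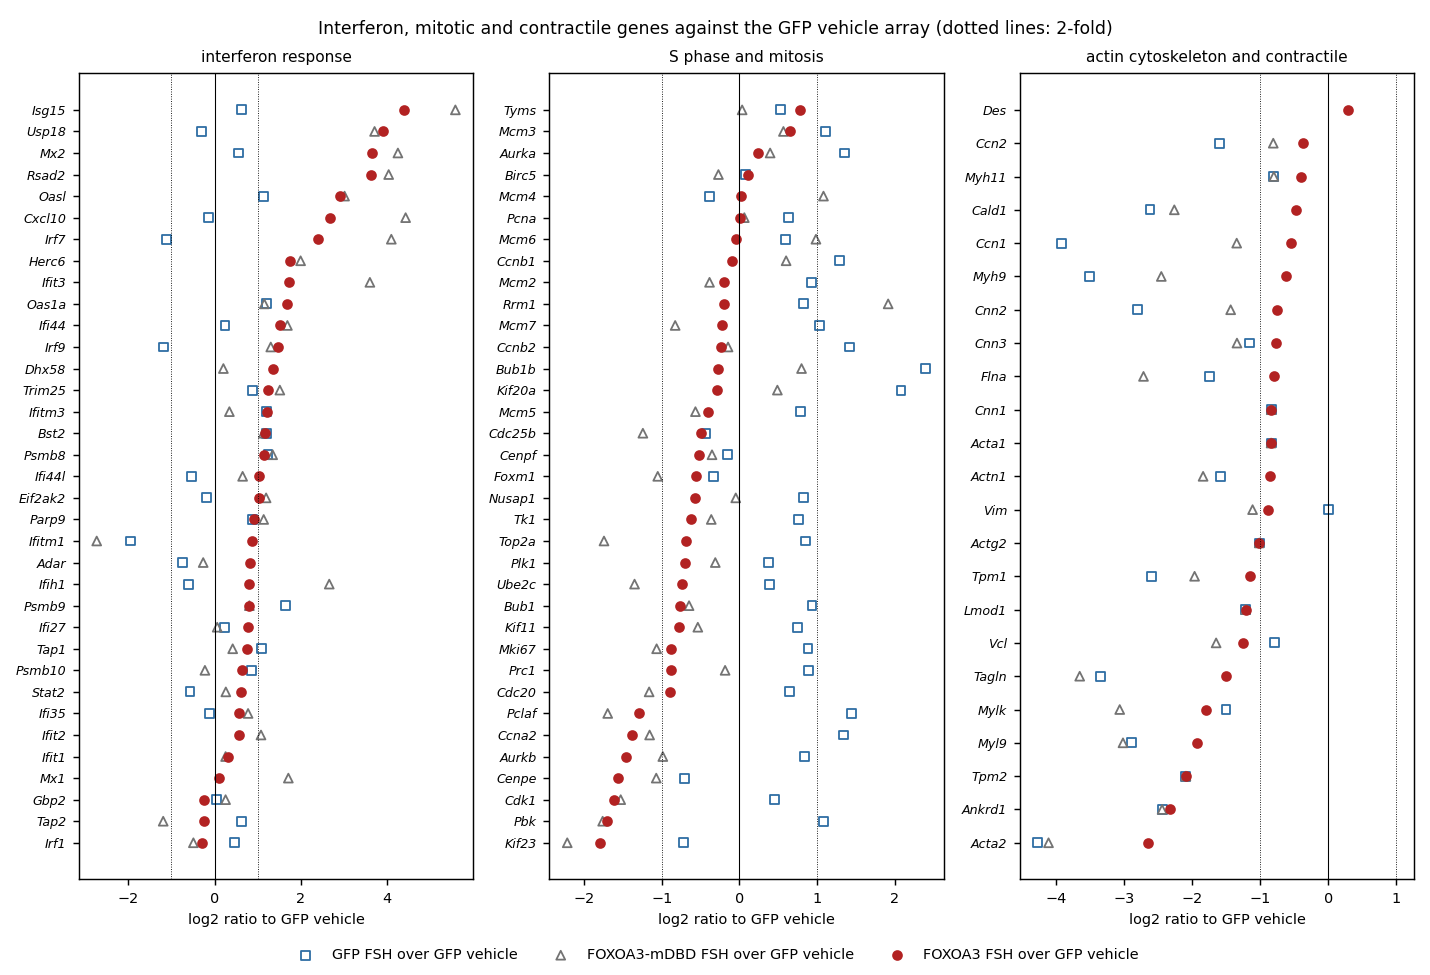
Log2 ratios to the GFP vehicle array (x axis) for each measured gene of the interferon, mitotic and contractile lists, with FOXOA3 FSH as filled circles, GFP FSH as open squares and FOXOA3-mDBD FSH as open triangles. By their medians, interferon genes lie to the right on both FOXO1 arrays (1.02 and 1.14), mitotic genes to the left on FOXOA3 FSH (-0.56) and to the right on GFP FSH (0.82), and contractile genes to the left on FOXOA3 FSH (-0.86) and farther on GFP FSH (-1.67).

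Amino acid stress genes were in part higher. Of 30 measured genes of amino acid stress and the unfolded protein response, 8 were higher (5.32% of all genes) and 0 lower in the pair, with a median of 0.35, and on GFP FSH 8 of 29 were higher (6.84% of all genes) and 2 lower. The cystine transporter Slc7a11 had 103, 471, 568 and 701. Asparagine synthetase (Asns) had 478, 1933, 1793 and 1715. The serine synthesis enzyme Psat1 had 137, 291, 594 and 764. These were higher on each hormone array than on vehicle. The amino acid transporter Slc7a5 had 174, 184, 427 and 102. The glutathione-degrading enzyme Chac1 had 247, 174, 578 and 382. Both were highest on FOXOA3 FSH. The endoplasmic reticulum chaperones Hspa5 and Hsp90b1 were at log2 ratios of -0.36 and -0.24, and Dnajb9 was 2.72-fold higher.

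TGF-beta family genes had 3 of 32 higher, near the 5.32% of all genes, and 6 lower (4.01% of all genes), with a median of -0.03. Besides Inhbb, the activin receptor Acvr2a and the matrix protein Tgfbi were higher. Acvr2a had 625, 436, 1782 and 3641. Tgfbi had 77.3, 1469, 316 and 68.2. Acvr2a was high on the FOXO1 arrays and Tgfbi on GFP FSH. Tgfb2 had 4496, 459, 1569 and 942. The BMP receptor Bmpr2 had 2253, 4198, 978 and 1698. Follistatin-like Fstl1 had 3482, 1104, 1279 and 168. Bmpr2 had its lowest signal on FOXOA3 FSH, whereas Tgfb2 and Fstl1 were lower on every hormone array than on vehicle. Among WNT and Notch genes 4 of 22 were higher (5.32% of all genes) and 4 lower (4.01%). Sfrp2, Sfrp4 and Sfrp1, secreted WNT inhibitors, were higher, Sfrp1 by at least 2.22-fold, as was the Notch target Hey2, with 464, 431, 1754 and 1179. The Notch ligand Jag1 had 517, 321, 145 and 342 and was 3.57-fold lower.

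Transcription factors of the follicle were mostly near vehicle, with 1 of 11 higher, near the 5.32% of all genes, and 3 lower (4.01% of all genes). Runx1 had 683, 3472, 1576 and 1654 and was 2.31-fold higher. Nr0b1, a repressor of steroidogenic genes, had 1359.7, 222, 508 and 208. The GATA cofactor Zfpm2 had 2810.1, 727, 889 and 439. Wt1, given above, and these 2 were lower on every hormone array. Gata4 and Nr5a1 were within 1.5-fold of vehicle in the pair, at log2 ratios of -0.38 and 0.31. Inflammatory and NF-kB targets had 3 of 12 higher (5.32% of all genes) and 0 lower, namely the C/EBP factor Cebpb, with 848, 519.9, 2774 and 99.1, Nfkbiz and Sod2.

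Lists that stayed at the level of vehicle and of the background were oxidative phosphorylation (0 of 26 called, median -0.04), apoptosis (0 of 21, -0.09), reference genes (0 of 11, -0.14) and antioxidant enzymes (1 of 23 higher and 1 lower, 0.05). Of all measured genes 9.33% were called, 5.32% higher and 4.01% lower. Few or no calls in lists this small are therefore no result about their members. Among the reference genes the log2 ratios ran from -0.44 for the ribosomal protein Rplp0 to 0.57 for Hprt1. Endothelial markers had 0 of 5 called (9.33% of all genes), and oocyte and surface epithelium markers had only 3 and 4 measured members.

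**Figure D5:**
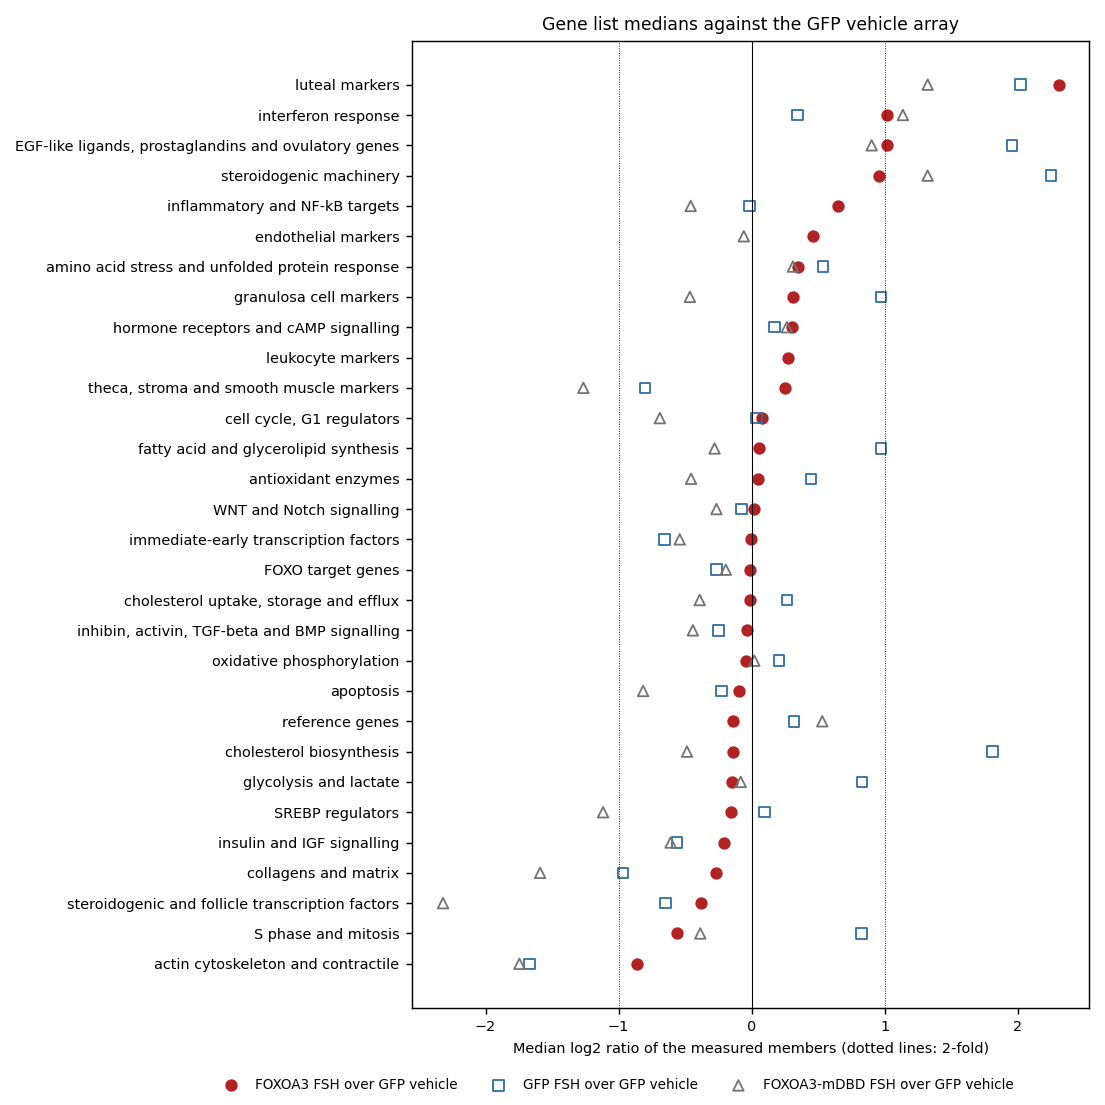
Median log2 ratio to the GFP vehicle array (x axis) of each list with at least 5 measured members, for FOXOA3 FSH (filled circles), GFP FSH (open squares) and FOXOA3-mDBD FSH (open triangles). Cholesterol biosynthesis is at -0.14 on FOXOA3 FSH and at 1.81 on GFP FSH, and the interferon list at 1.02 and 0.35.

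Different probe sets of a gene gave the only internal check of a value. Of 2485 genes with several measured probe sets, the median range of their log2 ratios was 0.38. Of the 246 called genes among them, 93 had every measured probe set past 2-fold the same way, 20 had a probe set of the opposite sign and 1 had one past 2-fold the opposite way. Of measured genes split into 4 equal classes by signal, 7.07%, 11.1%, 9.33% and 9.81% were called, from the dimmest class to the brightest. At the threshold, Slc6a6 (925 and 1851 on GFP vehicle and FOXOA3 FSH) was just inside on the higher side and Fjx1 (127 and 253) just outside. On the lower side Podxl2 (408 and 204) was just inside and Nbas (815 and 408) just outside.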

How the data were processed

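Affymetrix Rat Genome 230 2.0 arrays read RNA of 4 cultures or pools, 1 array a group. The deposited files hold intensity values that the authors made, per the submitters' processing notes, with MAS5. Their trimmed means of 500.1 to 500.2 show scaling to a common level. Probe sets were named from the platform annotation given, checked against RefSeq by gene ID, which matched for 99.7%. Python 3.11.15 with pandas 2.3.3 and statsmodels 0.14.6 raised signals to the floor, took log2 ratios and counted genes past 2-fold. The rule was tried on simulated pairs of arrays with an assumed noise. The noise cannot be estimated with 1 array a side, so that this trial does not measure the error of the rule here. Of 31099 probe sets, 57 controls, 436 with several symbols and 9780 with none were left out. The text names the 15 highest and lowest genes of the pair, 12 remaining and 12 added each way, 10 not remaining each way, and members of 33 gene lists. Members and lists were chosen with earlier results of these data known. Scaling, floor, probe-set rule and fold were varied in 8 alternatives. The number of arrays limits the precision.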

Additional observations from a re-analysis of the deposited data

Results flagged for a closer look

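Bacterial poly-A control transcripts, which are added to RNA before labelling, were present on some arrays only. Their geometric mean signal over 24 probe sets was 395 with GFP FSH and 539 with FOXOA3-mDBD FSH, and 21.4 and 22.6 on GFP vehicle and FOXOA3 FSH. Probe sets without a single gene symbol also differed between FOXOA3 FSH and GFP vehicle. Of 3939 such measured probe sets, 207 were higher (5.26%) and 175 lower (4.44%), shares close to those of the named genes. The highest of them had a signal of 8087 on FOXOA3 FSH, against 268 and 416 on the vehicle and hormone arrays of the GFP vector and 344 with the DNA-binding mutant. It was bright on FOXOA3 FSH alone, 30.2-fold above vehicle. The lowest had 235 on FOXOA3 FSH, against 2336 and 144 on the same GFP arrays and 108 with the mutant, and was 9.93-fold lower in the pair.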

How the results depend on the processing

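No paired analysis was possible because each group has 1 array, and no replicate could be left out. The 527 higher and 397 lower genes became 1237 and 609 with the floor at the 25th percentile of signals (27.4), 204 and 205 with it at the 75th (542.5), and 215 and 103 at a fold of 3. A lower floor tests dimmer genes, and the share of called genes that were higher was 57.0% as reported, 67.0%, 49.9% and 67.6% in these settings. With quantile, median or loess scaling and with other probe-set rules, between 432 and 531 genes were higher and between 303 and 430 lower. Across the alternatives, 201 list medians moved by less than 1.5-fold and 7 by more. The exceptions were the steroidogenic (1.63), theca, stroma and smooth muscle (0.84) and luteal (3.18) lists at the 25th percentile floor, the EGF-like (0.30), theca, stroma and smooth muscle (1.54) and luteal (1.16) lists at the 75th, and the luteal list (1.15) with the mean over probe sets. Of the values of named genes, 460 moved by less than 1.5-fold and 56 by more, and 0 called values changed sign. Some called genes were within 2-fold in at least 1 alternative. These were Mal2 (log2 ratio -0.47), Tnnc1 (-0.53), P4ha3 (-0.59), Rcan2 (-0.62), Tcim (-0.75), Mmd2 (0.49), Fam110c (0.92), Kcne4 (0.93) and G0s2 (0.97). The other called named genes stayed past 2-fold wherever they were measured. The part of each cause was not tested, and 1 array a side limits every value above.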

Other observations

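The genes below were chosen after their values were seen, from outside the lists, and signals are in the same order as above, from GFP vehicle to FOXOA3-mDBD FSH. Single genes are given as values only and stand for no group. The protocadherin Pcdh17 had 96.7, 104, 1269 and 1036. The ephrin receptor Epha3 had 12.3, 45.5, 959 and 6752. The glycine receptor subunit Glrb had 67.2, 99.6, 1261 and 687. Each was brighter on both FOXO1 arrays than on either GFP array. Reelin (Reln), an extracellular guidance protein, had 307, 154, 3136 and 786 and was 10.2-fold higher in the pair. The amino acid transporter Slc6a15 had 279, 199.6, 2598 and 949. Pcdh20 was brightest with the mutant, with 312, 74.5, 1422 and 9005. The next 3 stood high on FOXOA3 FSH alone. Depp1, a known FOXO-induced gene that was on none of the lists, had 132, 46.3, 1043 and 65.8. The kinase Sgk3 had 459, 588, 3398 and 621. The cytochrome Cyp2j4 had 207, 213, 2432 and 314. With the DNA-binding mutant Sgk3 and Cyp2j4 were within 2-fold of vehicle, and Depp1 was under the floor.

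Further genes followed GFP FSH in part. Crabp2, a retinoic acid carrier, had 429.5, 14955, 3016 and 3828. The tight junction protein Cldn11 had 41.6, 813, 705 and 80.4. The nucleotidase Nt5e had 29.0, 1006, 443 and 279. All 3 were low on vehicle and higher on GFP FSH and FOXOA3 FSH. Other genes were lower in the pair. The neurotrophin Bdnf had 2782, 348, 589 and 1149.7. The secreted hormone Stc1 had 5626, 1188, 1271 and 2374. The transcription factor Mef2c had 3823, 1066, 894 and 872. The integrin subunit Itga6 was 4.16-fold lower in the pair and the LIM proteins Fhl1 and Pdlim1 4.40-fold and 4.96-fold. These were brightest on vehicle. No explanation was tested for any of them.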
